A study of Rattus norvegicus with 50 samples.

Results

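Heme is made by a chain of enzymes, and 9 liver transcripts of that route were followed: both forms of its first enzyme (Alas1 and Alas2), Alad, Uros, Urod, Cpox, Ppox and Fech, and the mitochondrial iron importer Slc25a37. The genes were taken by symbol from a rat liver array table, with the brightest probe of each symbol, and all 9 were found among the 14506 genes of the table, each with a single probe. The livers came from 50 male Sprague Dawley rats of approximately 3 months, 5 in each of 10 groups, with 1 Affymetrix Rat Gene 1.0 ST array per animal. Intact sham animals formed 1 group. The other 9 groups all had a controlled cortical impact, a mechanical bruise of the exposed brain, and were then given saline as vehicle, EPO (erythropoietin, 2500 IU/kg) or anakinra, which blocks the receptor of interleukin-1 (100 mg/kg); their livers were collected 24 h, 72 h or 7 days after the impact. No EPO or anakinra was given without injury, and the sham animals carry neither a time nor a vehicle in the labels, so injury, saline, handling and time cannot be told apart in comparisons with sham. Tissue was punched from the median lobe, and the labels mention no perfusion.

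Heme synthesis starts in mitochondria, where 5-aminolevulinate synthase joins glycine and succinyl-CoA, continues in the cytosol through enzymes that include Alad, Uros and Urod, and returns to mitochondria for Cpox, Ppox and Fech, the ferrochelatase that inserts iron into protoporphyrin. The first step is run by separate genes: Alas1 is the housekeeping form, which sets the rate in hepatocytes and is held down by heme, whereas Alas2 is the form of developing red cells, where it serves hemoglobin and is translated according to iron supply. Slc25a37, mitoferrin 1, carries iron into the mitochondria of erythroid cells. EPO is the growth factor of red cell precursors, and the liver of adult rodents can host such precursors and always holds blood.

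The promoters of both first-step genes are shown because these genes carry the contrast between the hepatic and the erythroid route. That of Fech, the last enzyme, is shown beside them. RefSeq's table for the build GRCr8 held 7 of the 9 genes. The 250 bases before the annotated start are given 5′ to 3′ on the gene's strand, for Alas1 at chr8:115768643-115768892 (minus strand), for Alas2 at chrX:22895200-22895449 (plus strand) and for Fech at chr18:60248526-60248775 (minus strand). Capitals mark GATA words, the core that GATA1 recognises (searched as AGATAA and as AGATAG and, with another first letter, as TGATAA and as TGATAG), and CACCC, the core of sites read by Klf1 and related factors, each searched on both strands.
Alas1: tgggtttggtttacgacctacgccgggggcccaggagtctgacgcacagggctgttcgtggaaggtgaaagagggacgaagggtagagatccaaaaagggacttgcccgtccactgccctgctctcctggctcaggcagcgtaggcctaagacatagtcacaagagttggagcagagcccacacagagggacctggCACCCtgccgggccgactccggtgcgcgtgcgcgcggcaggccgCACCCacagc
Alas2: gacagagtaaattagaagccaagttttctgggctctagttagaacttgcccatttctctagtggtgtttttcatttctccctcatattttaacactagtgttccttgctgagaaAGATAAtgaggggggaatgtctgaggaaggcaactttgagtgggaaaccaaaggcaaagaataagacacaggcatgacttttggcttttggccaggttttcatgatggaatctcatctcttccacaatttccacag
Fech: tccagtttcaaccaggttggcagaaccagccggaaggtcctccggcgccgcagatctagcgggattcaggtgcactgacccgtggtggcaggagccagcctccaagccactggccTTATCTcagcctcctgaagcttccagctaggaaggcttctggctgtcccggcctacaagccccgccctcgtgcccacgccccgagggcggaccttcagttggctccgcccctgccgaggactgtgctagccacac
Alas2 held 1 GATA word, AGATAA, from base 136 to base 131 before the start, and Fech held 1 on the other strand, TTATCT, from base 135 to base 130. No GATA word was found in this window of Alas1, Alad, Uros, Urod or Ppox. CACCC occurred 2 times in Alas1 and 1 time in Alad, and not in the window of Alas2 or Fech. These words are common: 22.8% of the 12536 such promoters of tested genes hold a GATA word and 53.2% hold CACCC. The E-box CACGTG was found in Alad and Urod, against 6.82% of the promoters of tested genes, and no member's window held CCACACCC (3% of those promoters), TGCGCA (9.32%) or TGTTTAC (2.62%). A match is a string of letters, and no binding was measured.

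All values are log2 values from robust multi-array averaging (RMA), and errors are standard deviations (SD) over the 5 animals of a group. Array medians ran from 6.66 to 6.89. The SD over all probes was 2.11 at the median array, and 5 arrays of narrower spread (1.99 to 2.04) stood below the rest: vehicle 24 h array 3, vehicle 72 h arrays 2 and 5, vehicle 7 days array 3 and EPO 7 days array 3. All 10 hepatocyte markers were measured, and their mean log2 level lay between 12.84 and 13.14 on every array. The members differed widely in how much they varied between animals of 1 group. Alas2 had a within-group SD of 0.79, above 99.9% of all genes, whereas the median gene had 0.17. The other members ran from 0.14 for Alad to 0.31 for Fech.

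Alas1 had its highest mean in sham livers and its lowest in EPO livers at 7 days. The sham arrays read 11.56, 12.03, 12.03, 11.33 and 11.28, a mean of 11.65 ± 0.37 (SD, n = 5). The EPO arrays at 7 days read 10.98, 11.11, 11.03, 10.83 and 11.02, a mean of 10.99 ± 0.10. All 5 EPO arrays lay below all 5 sham arrays, and sham arrays 2 and 3 stood above the other 3. In order of the mean log2 level, sham was followed by vehicle 24 h (11.39), anakinra 24 h (11.37), vehicle 72 h (11.34), anakinra 7 days (11.31), EPO 24 h (11.19), vehicle 7 days and anakinra 72 h (11.11 each), EPO 72 h (11.07) and EPO 7 days. No neighbours in that order differed beyond their spread, the widest step being the 0.25 from sham to vehicle at 24 h (adjusted p = 0.441).

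**Figure D1:**
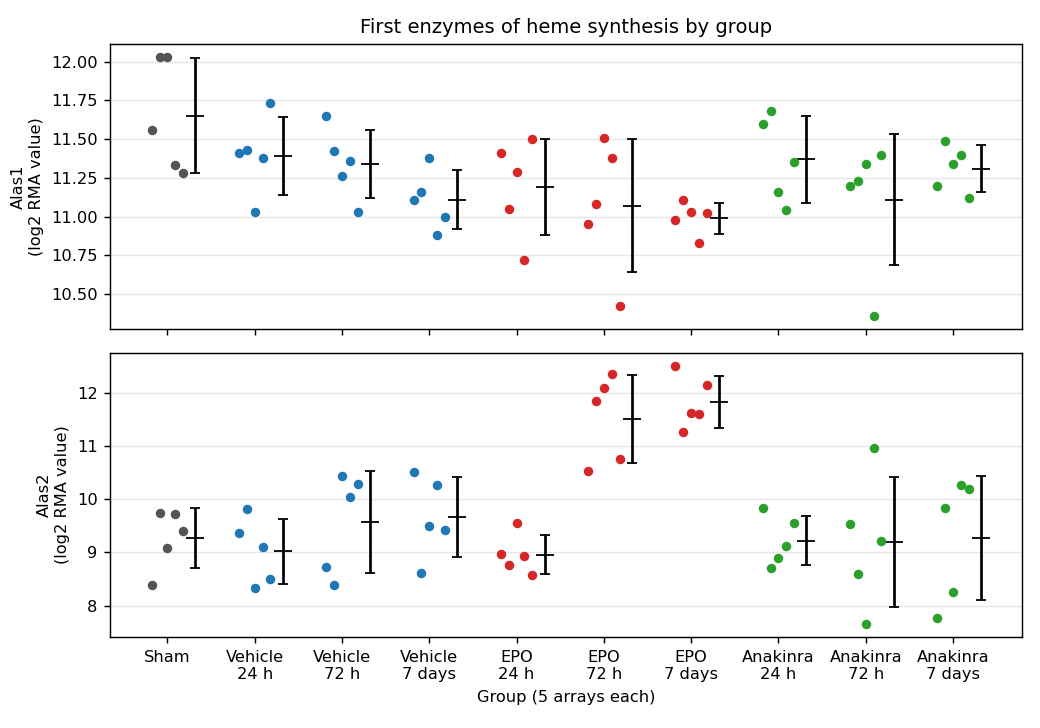
Log2 RMA values of Alas1 (top) and Alas2 (bottom) by group, with 1 point per liver in the order of array number and, beside the points, the mean with its SD (n = 5). Alas1 is highest in sham (mean 11.65) and lowest in EPO at 7 days (10.99), whereas Alas2 stands at 11.51 and 11.83 in EPO at 72 h and 7 days and at or below 9.66 in the other 8 groups.

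The comparison of EPO with sham at 7 days was the only one in which Alas1 passed the test: it fell by 0.65 (95% interval -1.01 to -0.30, 1.57-fold lower, adjusted p = 0.0314, limma with Benjamini-Hochberg adjustment over all genes). It was the 1 member called lower there, against 1.63% of all genes called lower. Against sham at 72 h the EPO difference was -0.58 (adjusted p = 0.0532), with array 5 of the EPO group at 10.42 and array 3 at 11.51, and at 24 h it was -0.45 (adjusted p = 0.485). The 7-day call was lost without sham array 2 (adjusted p = 0.118) or 3 (0.115), without EPO array 1, 3, 4 or 5 (0.0554 to 0.0687), and with every array centred and scaled (-0.47, adjusted p = 0.286). The 72 h difference passed in 8 of 18 alternatives: without EPO array 3 (0.0194) or 4 (0.0355), sham array 4 (0.0359) or 5 (0.027) or the narrow arrays (0.0439), with array weights (0.0227), with genes above the median level (0.0471) and with the replicate block (0.0387).

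In injured livers given vehicle, 0 of 9 members passed against sham at 24 h (limma), where 0.827% of all genes were called. There 0 of 9 reached an unadjusted p under 0.05, against 15.9% of all genes. At 72 h and at 7 days 0 members passed and so did 0% of all genes. An unadjusted p under 0.05 was reached by 0 and 1 members, against 12.1% and 6.52% of all genes. The 1 was Alas1 at 7 days, where the vehicle arrays read 11.11, 11.16, 11.38, 10.88 and 11 and the difference from sham was -0.54 (95% interval -0.89 to -0.19, adjusted p = 0.739). Alas2 differed from sham by -0.25 at 24 h (95% interval -1.19 to 0.70), 0.30 at 72 h (-0.64 to 1.25) and 0.39 at 7 days (-0.55 to 1.33). Across the 3 vehicle times, the F test called 0 of 9 members, against 0.0689% of all genes. It gave an unadjusted p under 0.05 for 0 of 9 members and for 5.35% of all genes.

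**Figure D2:**
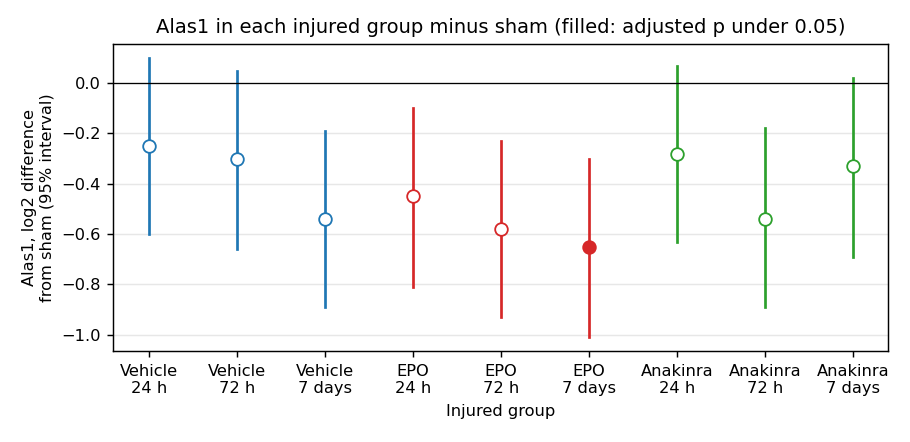
Log2 difference of Alas1 between each of the 9 injured groups and sham, with the 95% interval from limma. All 9 points lie below 0, between -0.25 and -0.65, and share the same 5 sham livers; the filled point, EPO at 7 days, has an adjusted p of 0.0314.

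Alas2, the red-cell form, stood higher in EPO livers at 72 h and 7 days and not at 24 h. At 24 h the EPO livers read 8.98, 8.76, 9.55, 8.94 and 8.58 for Alas2, against 9.37, 9.81, 8.33, 9.11 and 8.50 with vehicle, and the groups overlapped fully. For EPO against vehicle at 24 h 0 of 9 members were called (0.0276% of all genes). An unadjusted p under 0.05 was reached by 0 of 9 (10.8% of all genes). At 72 h the EPO livers read 10.52, 11.85, 12.08, 12.36 and 10.75, and the vehicle livers 8.73, 8.38, 10.43, 10.05 and 10.28. Every EPO value exceeded every vehicle value, though arrays 1 and 5 of the EPO group came close to the 3 higher vehicle livers. At 7 days the EPO livers read 12.51, 11.27, 11.61, 11.60 and 12.15, all above the vehicle livers at 10.51, 8.61, 9.49, 10.26 and 9.43.

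Alas2 rose with EPO by 1.94 at 72 h (95% interval 0.99 to 2.88, 3.83-fold, adjusted p = 0.0106) and by 2.17 at 7 days (1.23 to 3.11, 4.49-fold, adjusted p = 0.0118). By size these were the 12th and the 6th highest log2 differences of the 14506 genes. Alas1 differed from vehicle by -0.27 at 72 h (95% interval -0.63 to 0.08) and by -0.11 at 7 days (-0.47 to 0.24), neither past the test. In bulk tissue, more cells of a type and more RNA per cell cannot be told apart. The Alas2 call at 72 h was lost without vehicle array 1 (adjusted p = 0.0548), vehicle array 2 (0.0831) or EPO array 4 (0.0546), with array weights (0.102), without the narrow arrays (0.0889) and with only these groups in the fit (0.0793), while the difference ranged from 1.64 to 2.19. That at 7 days was lost without EPO array 1 (0.0784) or vehicle array 2 (0.0882), with array weights (0.0536) and without the narrow arrays (0.0514), with a range of 1.90 to 2.38. Against sham, Alas2 stood 2.24 higher at 72 h (adjusted p = 0.00178) and 2.56 higher at 7 days (7.36e-04), and both calls held in all 18 alternatives.

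In total, 4 of 9 members rose with EPO against vehicle at 72 h, namely Alas2, Urod, Fech and Slc25a37, where 2.18% of all genes were called higher, and the median difference was 0.19 over the members and -0.03 over all genes. At 7 days 3 of 9 rose, Alas2, Fech and Slc25a37, where 0.331% of all genes were called higher, with medians of 0.27 and 0. Values of all 5 EPO livers lay above all 5 vehicle livers for 3 members at 72 h (1.11% of all genes) and for 4 at 7 days (0.662% of all genes), the additional one being Alad. No member was called lower at either time.

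**Figure D3:**
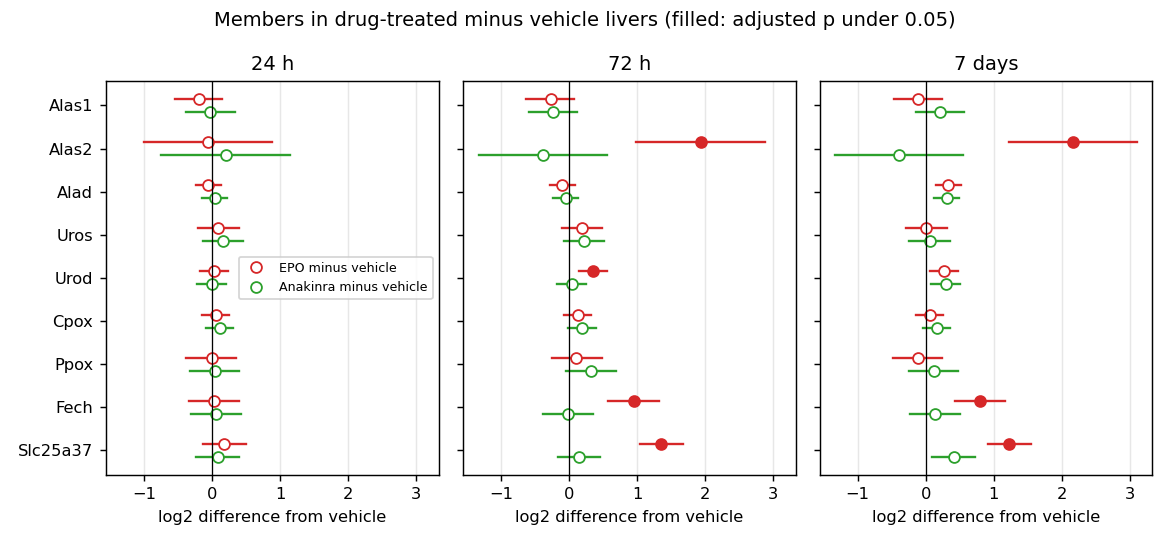
Log2 difference of each member from vehicle at 24 h, 72 h and 7 days for EPO (red) and anakinra (green), with 95% intervals from limma and filled points for an adjusted p under 0.05. Filled points appear under EPO only, for Alas2, Urod, Fech and Slc25a37 at 72 h and for Alas2, Fech and Slc25a37 at 7 days, with the widest intervals for Alas2.

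Fech, the last enzyme, rose with EPO at 72 h and at 7 days. The vehicle livers at 72 h read 9.28, 8.76, 9.29, 9.21 and 9.21 and the EPO livers 9.42, 10.10, 10.47, 11.02 and 9.50. All EPO values lay above the vehicle range, with arrays 1 and 5 again lowest and close to it. The difference was 0.95 (95% interval 0.58 to 1.32, 1.94-fold, adjusted p = 7.75e-04). At 7 days the vehicle livers read 9.45, 8.85, 9, 9.15 and 9.13 and the EPO livers 10.62, 9.69, 9.56, 9.65 and 10.08, without overlap. That difference was 0.80 (0.43 to 1.17, 1.74-fold, adjusted p = 0.0232). The 72 h call was lost only when the fit held these 2 groups alone (adjusted p = 0.162). The 7-day call was lost in that fit too (0.161), and without EPO array 1 (0.268) or 5 (0.0941) or vehicle array 2 (0.122), 3 (0.0793), 4 (0.0529) or 5 (0.0558).

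Slc25a37 gave the smallest p among the members. Its vehicle livers read 8.13, 8.44, 8.72, 8.43 and 8.62 at 72 h, and its EPO livers 9.20, 10.08, 10.15, 10.32 and 9.38. No EPO value came within the range of any other group at 72 h. The difference from vehicle was 1.36 (95% interval 1.04 to 1.67, 2.56-fold, adjusted p = 4.67e-08), which placed the gene 8th of 14506 by p. At 7 days the vehicle livers read 8.48, 8.15, 8.34, 8.44 and 8.39 and the EPO livers 9.80, 9.26, 9.38, 9.51 and 10, a difference of 1.23 (0.92 to 1.54, 2.35-fold, adjusted p = 1.91e-06, 2nd by p). Both calls held in all 18 alternatives. At 24 h the EPO livers had read 8.44, 8.12, 8.24, 8.61 and 8.42, and the difference of 0.18 was not called (adjusted p = 0.614).

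**Figure D4:**
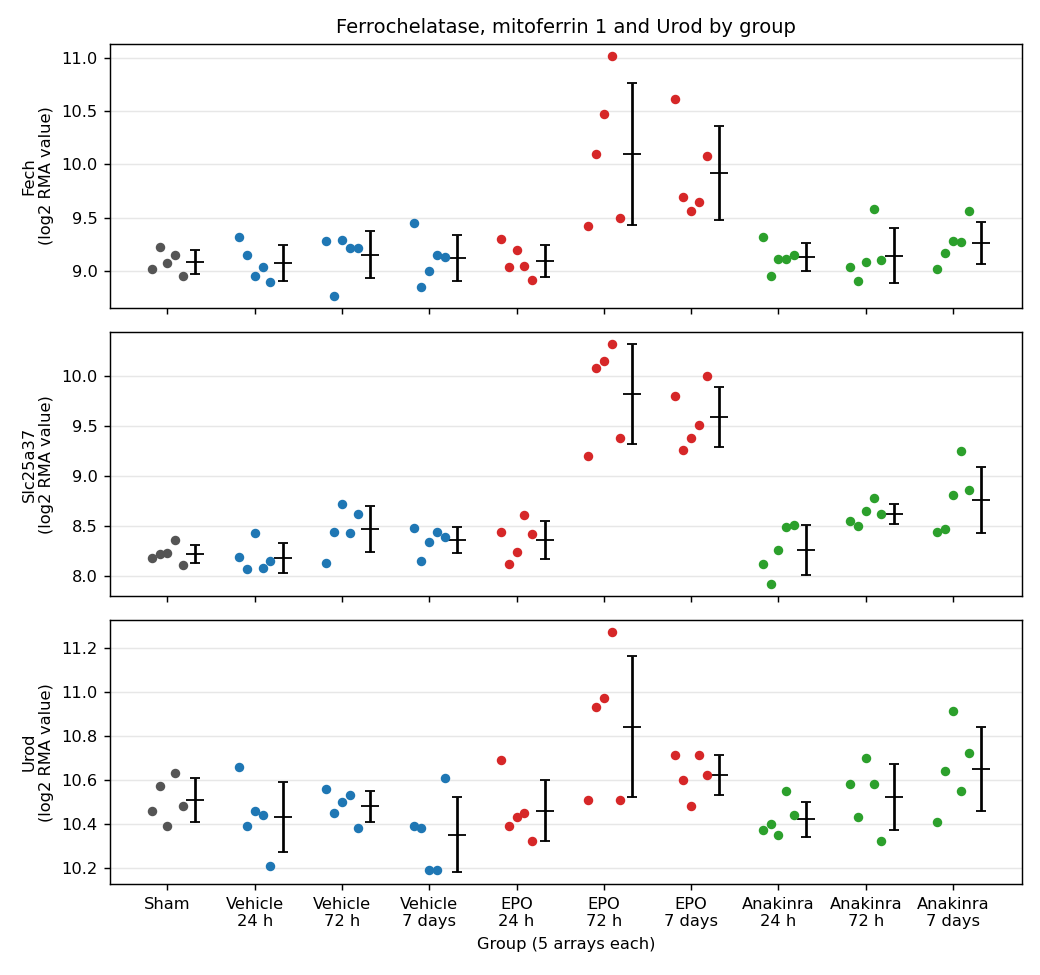
Log2 RMA values of Fech, Slc25a37 and Urod by group, with 1 point per liver and the mean with its SD (n = 5). Fech and Slc25a37 are raised in EPO at 72 h (means 10.10 and 9.82) and 7 days (9.92 and 9.59), Urod reaches 10.84 in EPO at 72 h, and Slc25a37 at 7 days of anakinra (8.76) lies above sham (8.22).

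Slc25a37 was also the single member whose EPO effect differed between the 3 times by test. The interaction of EPO with time had F = 17.2 (adjusted p = 0.00369), with 0.214% of all genes called. The same test gave F = 6.84 for Alas2 (adjusted p = 0.277), 7.34 for Fech (0.24) and 6.62 for Alad (0.292). These 3 did not pass but reached an unadjusted p under 0.05, as did 8.47% of all genes. Without EPO 72 h array 1, Fech passed as well (adjusted p = 0.0377). For Alas1 the interaction had F = 0.212 (adjusted p = 0.937).

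Urod, the fifth enzyme, was called at 72 h only, and narrowly. The vehicle livers read 10.56, 10.45, 10.50, 10.53 and 10.38 and the EPO livers 10.51, 10.93, 10.97, 11.27 and 10.51. The groups overlapped, because EPO arrays 1 and 5 lay within the vehicle range and arrays 2, 3 and 4 above it. The difference was 0.35 (95% interval 0.15 to 0.56, adjusted p = 0.0477). It shrank to 0.03 (adjusted p = 0.899) when every array was centred and scaled, and the call was lost in 13 of 18 alternatives, among them those without the 5 narrow arrays (0.276), with only these groups (0.42), with the replicate block (0.0533), without vehicle array 1 (0.0677), 2 (0.13), 3 (0.0587) or 5 (0.113), and without EPO array 2 (0.134), 3 (0.135) or 4 (0.194). Against sham at 72 h Urod differed by 0.33 (adjusted p = 0.063), and passed without EPO array 1 (0.0117) or 5 (0.0177).

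Alad, the second enzyme and a zinc protein of the cytosol, and the remaining enzymes did not pass in any comparison. At 7 days Alad read 10.23, 10.29, 10.31, 10.21 and 10.20 with EPO, 10.13, 10.01, 10.44, 10.24 and 10.31 with anakinra, and 10.01, 9.72, 9.96, 9.91 and 9.98 with vehicle. The EPO livers lay above all vehicle livers, and 4 of the 5 anakinra livers did, the remaining one, at 10.01, level with the highest of them. Alad differed from vehicle by 0.33 with EPO (adjusted p = 0.151) and by 0.31 with anakinra (adjusted p = 0.365). Both comparisons share the same 5 vehicle livers, whose Alad mean of 9.92 was the lowest of the 10 groups. Urod showed a like pattern at 7 days, at 0.27 with EPO (adjusted p = 0.716) and 0.29 with anakinra (0.506), again over the lowest group mean of the gene (10.35). Uros, the fourth enzyme, had group means from 7.52 to 7.79. Cpox, the sixth, ranged from 9.37 to 9.63 and Ppox, the seventh, from 7.43 to 7.81. For each of these 3 enzymes 0 of 18 comparisons of 2 groups passed, and 0 of 18 had an unadjusted p under 0.05.

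No member was called with anakinra against vehicle. At 24 h 0 of 9 passed (0% of all genes) and 0 had an unadjusted p under 0.05 (4.25% of all genes). At 72 h the counts were the same (0% and 10.7% of all genes). At 7 days 0 of 9 passed, against 0.0138% of all genes. An unadjusted p under 0.05 was reached there by 3 of 9, Alad, Urod and Slc25a37, against 7.62% of all genes. Slc25a37 read 8.44, 8.47, 8.81, 9.25 and 8.86 with anakinra at 7 days, and arrays 3, 4 and 5 lay above all vehicle livers; the difference was 0.41 (95% interval 0.09 to 0.72, adjusted p = 0.517). Alas2 in the same livers read 7.77, 9.84, 8.26, 10.27 and 10.20, a difference from vehicle of -0.39 (-1.34 to 0.55). The interaction of anakinra with time called 0 members and 0% of all genes. Of the members 1, Alad, had an unadjusted p under 0.05 there, against 2.77% of all genes.

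Against sham, anakinra gave 0 calls among the members at 24 h (0.193% of all genes), 72 h (0.11%) and 7 days (1.83%). An unadjusted p under 0.05 was reached by 0, 2 and 2 members, against 6.28%, 5.78% and 14.1% of all genes. Slc25a37 at 7 days came nearest. All 5 anakinra livers lay above all 5 sham livers, which read 8.18, 8.22, 8.23, 8.36 and 8.11, and the difference was 0.54 (95% interval 0.23 to 0.86, adjusted p = 0.0524). It passed in 7 of 18 alternatives, including those without anakinra array 1 (0.0368) or 2 (0.038). At 72 h Slc25a37 was 0.40 above sham (adjusted p = 0.539) and Alas1 0.54 below it (-0.54, adjusted p = 0.32); Slc25a37 passed with only these groups in the fit (0.017) and Alas1 with array weights (0.0473). EPO against sham gave 0 calls at 24 h (0.434% of all genes), with Alas1 alone at an unadjusted p under 0.05 (5.99% of all genes). It gave 3 higher calls at 72 h (2.74% of all genes called higher) and 3 at 7 days (1.23%), each time Alas2, Fech and Slc25a37. Fech was 1.02 and 0.84 above sham, and Slc25a37 1.60 and 1.37.

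EPO was also set directly against anakinra. At 24 h 0 of 9 passed (0.0207% of all genes) and 0 had an unadjusted p under 0.05 (1.69% of all genes). At 72 h 3 of 9 were higher with EPO (1.74% of all genes): Alas2 by 2.32 (adjusted p = 0.00154), Fech by 0.97 (6.24e-04) and Slc25a37 by 1.21 (5.82e-07). With only these groups in the fit, Alas2 (0.0601) and Fech (0.117) did not pass at 72 h. At 7 days 2 of 9 were higher (0.407% of all genes), Alas2 by 2.56 (0.00119) and Slc25a37 by 0.83 (0.00172), while Fech differed by 0.66 (0.127) and passed once arrays were centred and scaled (0.77, 0.00788). Alas1 differed between the drugs by -0.17, -0.04 and -0.32 at 24 h, 72 h and 7 days, none past the test. Without EPO array 1 or 5, Urod at 72 h passed too (adjusted p = 0.0211 and 0.0301).

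Markers of red cells rose with EPO at 72 h and 7 days, the times at which Alas2, Fech and Slc25a37 were called. Of 14 measured markers of erythroid cells and reticulocytes, 12 rose with EPO against vehicle at 72 h (median 1.88, with 2.18% of all genes called higher) and 9 at 7 days (median 1.25, with 0.331%). Among them were Rhag, a blood-group protein (2 and 0.81), Slc4a1, the anion exchanger of the red cell membrane (2.89 and 2.48), Epb42 of the membrane skeleton (1.76 and 1.38) and Alox15, the lipoxygenase of maturing reticulocytes (3.84 and 4.32). In vehicle against sham at 24 h 1 of 14 fell, the carbonic anhydrase Car1 (-1.08), where 0.827% of all genes were called in either direction. The mean log2 level of the list ranged from 7.60 to 8.26 in sham, 7.42 to 8.82 in vehicle at 72 h, 7.65 to 8.53 in vehicle at 7 days and 7.79 to 8.33 in EPO at 24 h. It ranged from 9.33 to 10.99 in EPO at 72 h and from 9.45 to 10.55 at 7 days, without overlap with those groups. The beta-globin genes Hbb and Hbb-b1 are near-identical copies whose signals may be shared. With EPO against vehicle at 72 h they were 0.78 and 1.00 higher and were not called (limma, adjusted p = 0.157 and 0.124). Against sham 12 of the 14 markers were called higher in EPO livers at 72 h (2.74% of all genes) and 10 at 7 days (1.23%). Against anakinra 13 were called higher at 72 h (1.74%) and 12 at 7 days (0.407%). At least 1 of the 2 beta-globin genes was thus called against anakinra at 72 h. The part of red-cell number in the results for Alas2, Fech, Slc25a37 and Urod was not tested.

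Markers of other cell types were also counted. In EPO against vehicle 2.18% of all genes were called higher at 72 h and 0.331% at 7 days. Of 13 neutrophil markers 7 rose with EPO against vehicle at 72 h and 0 at 7 days, with a list mean of 5.85 to 6.11 in vehicle and 6.21 to 7.18 in EPO livers at 72 h. Of 11 markers of Kupffer cells and macrophages 8 rose at 72 h and 0 at 7 days (list mean 8.50 to 9.35 in vehicle and 9.42 to 9.65 in EPO livers at 72 h). With other controls fewer of these 11 were called higher in EPO livers at 72 h, 3 against sham (2.74% of all genes) and 2 against anakinra (1.74%). The sham list mean was 8.99 to 9.40, and vehicle livers at 72 h had a median difference from sham of -0.20. Against vehicle, lymphocyte and NK cell markers gave 3 of 10 higher at 72 h and 0 at 7 days. Their list means at 72 h were 6.48 to 7.03 in vehicle and 6.83 to 7.19 in EPO livers. Platelet and megakaryocyte markers gave 2 of 3 and 1 of 3, with 6.74 to 6.96 and 7.20 to 8.05. Of 10 hepatocyte markers 0 passed at either time, with 1 at an unadjusted p under 0.05 at each (20.0% and 4.97% of all genes). The interaction of EPO with time called 4 of 14 erythroid markers, 4 of 13 neutrophil markers and 1 of 3 platelet markers, against 0.214% of all genes. All 14 erythroid markers had an unadjusted p under 0.05 in it. It called 0 of 11 Kupffer cell and macrophage markers, 0 of 10 lymphocyte and NK cell markers and 0 of 10 hepatocyte markers. In each of the last 3 lists 1 marker had an unadjusted p under 0.05, against 8.47% of all genes. Apoa1, an apolipoprotein, was the 1 hepatocyte marker called lower in EPO livers against sham at 7 days (-0.61), the comparison in which Alas1 fell. The part of these cells in the results was not tested.

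In EPO livers at 72 h the order from highest to lowest was array 4, 3, 2, 5 and 1 for Alas2, Fech, Slc25a37, Urod and the erythroid marker mean alike, whereas Alas1 ran 3, 4, 2, 1 and 5. At 7 days array 1 was highest for Alas2 and Fech and array 5 for Slc25a37, with arrays 1 and 5 in the top places of all 3. A single anakinra liver at 72 h, array 4, had the highest Alas2 (10.96) and Fech (9.58) of the 40 livers outside EPO at 72 h and 7 days, the highest erythroid marker mean of its group (9.25) and the lowest Alas1 of all 50 livers (10.36). Of the 10 EPO livers at 72 h and 7 days, arrays 1 and 5 at 72 h (10.52 and 10.75) lay below it for Alas2.

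The co-variation of members was measured after subtracting each group's mean, over 36 pairs and 50 livers, with 100000 permutations within groups. Of the 36 pairs, 14 had an adjusted p under 0.05, and r was above 0 in all 14. Alas2 and Fech gave r = 0.67 (rho = 0.74, permutation p = 0.00001, the smallest these permutations can give, adjusted p = 1.80e-04), and r = 0.67 without the 2 livers farthest in Alas2. Alas2 and Slc25a37 gave r = 0.52 (rho = 0.49, permutation p = 4.70e-04, adjusted p = 0.0033; 0.56 without the 2 farthest). Fech and Slc25a37 gave r = 0.65 (rho = 0.59, permutation p = 5.50e-04, adjusted p = 0.0033; 0.60 without the 2 farthest), but 0.32 over the 40 livers without EPO at 72 h and 7 days. Alas1 and Alas2 gave r = -0.12 (rho = -0.06, permutation p = 0.471, adjusted p = 0.695; -0.04 without the 2 farthest), and no pair with Alas1 passed. The highest r was that of Uros with Ppox, 0.74 (rho = 0.71, permutation p = 0.00001, adjusted p = 1.80e-04, and 0.71 without the 2 farthest), enzymes that were not called in any comparison.

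**Figure D5:**
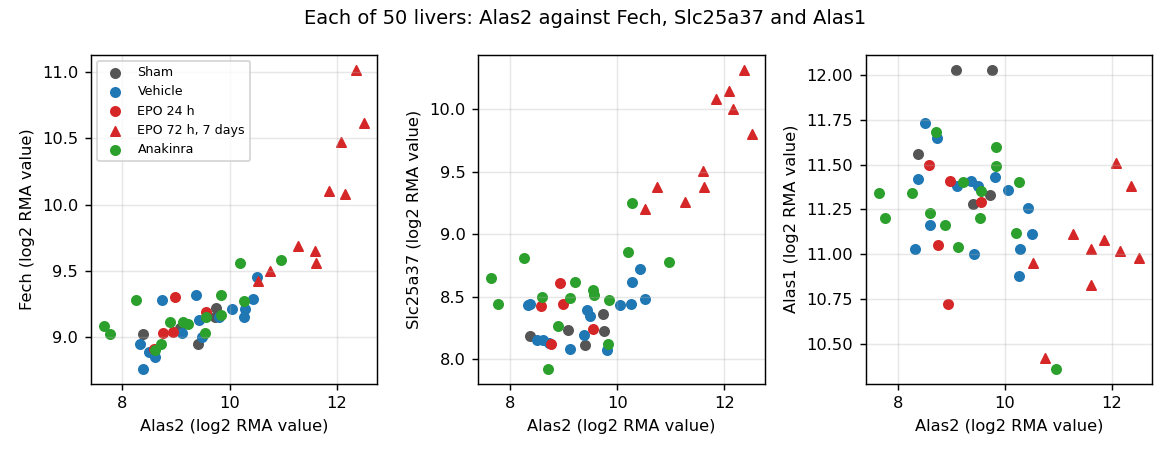
Log2 RMA values of Fech, Slc25a37 and Alas1 (y axes) against Alas2 (x axes), with 1 point per liver and triangles for EPO at 72 h and 7 days. The triangles, at Alas2 values from 10.52 to 12.51, carry the highest Fech (up to 11.02) and Slc25a37 (up to 10.32) values, while Alas1 shows no such rise.

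Each member was also set against the erythroid marker mean, again within groups, a comparison added after the values were seen (18 relations). Over the 10 EPO livers at 72 h and 7 days, r was 0.94 for Alas2 (rho = 0.95, permutation p = 2.70e-04, adjusted p = 0.00121) and 0.98 for Fech (rho = 0.99, permutation p = 2.10e-04, adjusted p = 0.00121). It was 0.87 for Urod (rho = 0.92, permutation p = 0.00552, adjusted p = 0.0199) and 0.86 for Slc25a37 (rho = 0.90, permutation p = 0.00665, adjusted p = 0.0199). Without the 2 farthest livers these values were 0.94, 0.96, 0.87 and 0.90. Over the 40 other livers r stayed at 0.97 for Alas2 (rho = 0.98, permutation p = 0.00001, adjusted p = 1.80e-04; 0.97 without the 2 farthest) and was 0.76 for Fech (rho = 0.72, permutation p = 2.00e-05, adjusted p = 1.80e-04; 0.65 without the 2 farthest). There it was 0.35 for Slc25a37 (rho = 0.35, permutation p = 0.041, adjusted p = 0.0922; 0.34) and 0.03 for Urod (rho = 0.08, permutation p = 0.872, adjusted p = 0.872; -0.02), neither past the threshold. Whether the relations differ between these sets of livers was not tested. Alas1 gave 0.59 over the 10 livers (rho = 0.53, permutation p = 0.147, adjusted p = 0.24; 0.65) and -0.37 over the 40 (rho = -0.26, permutation p = 0.0506, adjusted p = 0.101; -0.19).

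The genes nearest to each first-step gene were taken from all 14506 by the Pearson r of residuals from the group means over 50 livers, as a description. For Alas2 they were Cdc25b (0.96), a phosphatase of cell division, the beta-globins Hbb-b1 (0.95) and Hbb (0.95), Ybx3 (0.94), a Y-box RNA-binding protein, and Alox15 (0.92). For Alas1 they were Ppan (0.66), a ribosome-assembly factor, Noct (0.64), the rhythmic deadenylase-family protein nocturnin, Spata2L (0.62), Usp2 (0.62), a ubiquitin protease, and Tat (0.62), tyrosine aminotransferase of hepatocytes. All values of a liver come from the same RNA sample and array, which the points share.

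Of 15 other measured genes of heme synthesis and mitochondrial transport, 0 passed in EPO against vehicle at 24 h, 72 h or 7 days. Among the 15 were the glycine carrier Slc25a38, the porphyrin transporter Abcb6, the second mitoferrin Slc25a28 and the iron-sulfur protein Glrx5. An unadjusted p under 0.05 was reached by 1, 1 and 0 of the 15, against 10.8%, 20.0% and 4.97% of all genes. Slc25a28 differed by 0.05 at 72 h and 0.10 at 7 days, while its paralogue Slc25a37 rose by 1.36 and 1.23. Abcb10, a transporter of the inner mitochondrial membrane known to stabilise mitoferrin 1, was singled out after its values were seen: it stood 0.34 above sham in EPO livers at 72 h (adjusted p = 0.0359) and 0.27 above vehicle (0.124). It averaged 7.55 in EPO and 7.2 in anakinra livers at 72 h. In that comparison 1 of the 15 was called higher (limma, adjusted p = 0.0475). The highest difference of the list there was 0.35, that of Abcb10.

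Of 14 measured genes of erythroid transcription and signalling, 3 rose with EPO against vehicle at 72 h (2.18% of all genes called higher) and 1 at 7 days (0.331%). Klf1, the erythroid Krüppel-like factor, rose by 0.85 (adjusted p = 0.0042), Gata1, the erythroid GATA factor, by 0.50 (0.0155) and Tfrc, the transferrin receptor through which cells take up iron, by 0.96 (0.00578). At 7 days Tfrc rose by 1.22 (9.49e-04), while Klf1 differed by 0.63 (0.247) and Gata1 by 0.18 (1.00). Eif2ak1, the heme-regulated kinase that restrains globin translation, differed by 0.32 at 72 h (0.0778). The receptor Epor differed by -0.19 (0.17) and was not called.

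Known regulators and co-induced genes of hepatic Alas1 gave 0 of 25 calls in EPO against vehicle at 24 h, 72 h and 7 days. An unadjusted p under 0.05 was reached by 4, 1 and 2, against 10.8%, 20.0% and 4.97% of all genes. In vehicle against sham at 24 h 1 of 25 was called (0.827% of all genes), the clock factor Bmal1, which fell by 0.70 (adjusted p = 0.0364). There 10 of 25 had an unadjusted p under 0.05, against 15.9% of all genes, and Alas1 itself differed by -0.25. Of the genes not called in that comparison, the rhythm genes Npas2 and Nr1d1 differed by -0.84 (0.0646) and 0.98 (0.289). The lowest difference of the list was -1.22, that of G6pc1 (mean 11.06 with vehicle and 12.29 in sham), also not called. A part of rhythm in these differences was not tested. The time of day of collection is not given in the sources used here. Ppargc1a, a coactivator known to induce Alas1 in fasting, was singled out after its values were seen: it was 0.60 higher in EPO livers at 72 h than in sham (0.0456), where Alas1 was 0.58 lower (-0.58, 0.0532).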

How the data were processed

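Liver RNA was hybridised to Affymetrix Rat Gene 1.0 ST arrays. The values deposited by the authors are log2 values made with RMA and the oligo package, per the submitters' processing notes; their versions were not given in the sources used here. RMA quantile-normalises arrays, so changes are relative to the bulk of the genes. The array label names Cy3, which was not used. Of 29214 probes, 15310 had a single gene symbol, 323 several and 13581 none; the brightest probe of each symbol was kept, which left 14506 genes, 527 of them with several probes.

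Groups were compared two-sided in limma 3.58.1 under R 4.3.3 (lmFit and eBayes, 1 mean per group over 50 arrays, 40 residual degrees of freedom), with Benjamini-Hochberg adjustment over all genes within each of 18 comparisons of 2 groups and 3 F tests, and called at an adjusted p under 0.05. The fit was also run on simulated data, in which genes varied independently and each had the same spread in all groups. The real spreads were unequal, for Fech an SD of 0.67 in EPO livers at 72 h and 0.11 in sham. All genes entered whatever their level. The number of animals limits the precision, and arrays give no depth. The p-values rest on a spread between animals pooled over all 10 groups, which can differ from that in the 2 groups compared. The alternatives were array weights, eBayes with trend and robust options, a fit of only the groups compared, leaving out 5 narrow arrays, centring and scaling each array, averaging a gene's probes, keeping genes above the median level, a replicate block, and leaving out each array. Within-group relations of members to each other and to the erythroid marker mean were tested by permutation, the latter added after the values were seen.

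The members and lists were chosen with earlier results of these data known. Named were the 9 members in every comparison, the 5 nearest genes of Alas1 and Alas2, and up to 4 called genes per list. Other list genes were named outside this rule, among them Hbb, Hbb-b1, Slc25a28, Abcb10, Eif2ak1, Epor, Npas2, Nr1d1, G6pc1, Ppargc1a, Hmox2, Fth1, Ftl1 and Hpx. The lists were other heme synthesis and mitochondrial transport, heme breakdown, erythroid transcription, Alas1 regulators, and markers of hepatocytes, erythroid cells, neutrophils, Kupffer cells, lymphocytes and platelets.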

Additional observations from a re-analysis of the deposited data

Results flagged for a closer look

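Of 90 sets of 5 livers (9 members in 10 groups), 4 held a liver far from the other 4 of its group, where chance gives about 1 in 20. Alas1 in anakinra livers at 72 h had array 4 at 10.36 and the others between 11.20 and 11.40; the same liver had the highest Alas2 of its group. Alad in anakinra livers at 24 h had array 3 at 9.94 and the others between 10.06 and 10.10. Cpox in EPO livers at 7 days had array 4 at 9.37 and the others between 9.51 and 9.56. Fech in vehicle livers at 72 h had array 2, 1 of the 5 narrow arrays, at 8.76 and the others between 9.21 and 9.29. The effect of EPO on Slc25a37 differed between 24 h, 72 h and 7 days by the interaction test (limma, adjusted p = 0.00369), with differences from vehicle of 0.18, 1.36 and 1.23.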

How the results depend on the processing

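No difference called among the members changed direction under any alternative. The 4 calls of EPO against vehicle at 72 h became 2 with array weights, 1 with only the groups compared and 2 without the narrow arrays, and ranged from 2 to 4 when 1 array was left out. The 3 calls at 7 days ranged from 1 to 3 when 1 array was left out. EPO against sham at 72 h went from 3 to 5 with array weights. Anakinra against sham went from 0 to 1 at 72 h with array weights (Alas1) and with only the groups compared (Slc25a37), and at 7 days (Slc25a37) with those settings, without the narrow arrays, with genes above the median level and with the replicate block, with a range of 0 to 1 over arrays left out. EPO against anakinra at 72 h went from 3 to 1 with only the groups compared, and the interaction of EPO with time ranged from 1 to 2 over arrays left out. The causes were not tested. The median correlation of livers was -0.01 for pairs with the same replicate number and -0.01 for other numbers. Of 225 same-number pairs 78 correlated above 0.1, and 15 of 50 arrays were closest to one of their own number. The counts to be had by chance were not computed, so pairing by number was not tested. With the replicate block EPO against vehicle gave 3 calls at 72 h and 3 at 7 days. Of the correlations, those of Alad and Ppox with Fech lost the threshold with Spearman's rho (permutation, adjusted p = 0.074 each). Centring and scaling moved the median difference of all genes by at most 0.03. With that setting Urod in EPO against vehicle at 72 h went from 0.35 to 0.03. The call of Alas1 in EPO against sham at 7 days was lost (limma, adjusted p = 0.286).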

Other observations

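Heme breakdown and scavenging was not part of the comparisons above. Of 13 measured genes of heme breakdown, export and scavenging, 2 rose with EPO against vehicle at 72 h (2.18% of all genes called higher) and 0 at 7 days (0.331%). Hmox1, heme oxygenase 1, which opens the heme ring, read 8.43 on average with EPO and 7.59 with vehicle, a rise of 0.84 (limma, adjusted p = 7.52e-04) in which all 5 EPO livers lay above all 5 vehicle livers. Cd163, the macrophage receptor for haptoglobin-bound hemoglobin, rose by 0.78 (adjusted p = 2.94e-04), and it also stands on the list of Kupffer cell markers, of which 8 of 11 rose in the same comparison. At 7 days Hmox1 differed by 0.33 (adjusted p = 0.986) and Cd163 by 0.01 (1.00). The interaction of EPO with time called 0 of the 13 (limma), with 4 at an unadjusted p under 0.05 (8.47% of all genes). The adjusted p was 0.292 for Hmox1 and 0.169 for Cd163. The other heme oxygenase, Hmox2, differed by 0.16 at 72 h and by -0.34 at 7 days (0.149). The ferritin chains Fth1 and Ftl1, which store iron, differed by 0.11 and -0.05 at 72 h, and the heme carrier Hpx by 0.10. In vehicle against sham at 24 h, 2 of the 13 rose, the hemoglobin scavenger Hp by 0.27 and the hemopexin receptor Lrp1 by 0.58. No member of the synthesis route was called there, where 0.827% of all genes were called in either direction.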
